A study of Mus musculus with 20 samples.

Results

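Respiratory complexes III, IV and V carry electrons from ubiquinol to oxygen and use the resulting proton gradient to make ATP, and the genes described here encode their subunits in the nucleus. They were chosen by name from the array annotation: every probe set with a single symbol that begins with Uqcr, with Cox followed by 4 to 8, or with Atp5, or that reads Cyc1 or Cycs. This gave 45 genes of the 22180 with a single symbol, and a gene with several probe sets was read from the one that varied most (highest interquartile range). The study asked how a graft of neural stem cells acts on the striatum of mice that model dementia with Lewy bodies. Each of 20 arrays measured the striatum of 1 mouse labelled 12 months old, 5 in each of 4 groups. ASO mice carry a transgene for human wild-type α-synuclein under the PDGF-β promoter (line D), the model being a single transgenic line in which that promoter drives the protein mainly in neurons, and WT mice are their littermates on the same congenic C57BL/6J background. NSC mice had received GFP-expressing neural stem cells, grown from the hippocampus and cortex of newborn GFP-transgenic mice of matched background, by injection into the striatum, and Veh mice had received saline. The groups are thus WT-Veh (wild-type, saline), WT-NSC (wild-type, stem cells), ASO-Veh (α-synuclein, saline) and ASO-NSC (α-synuclein, stem cells).

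Complex III (ubiquinol-cytochrome c reductase) hands electrons to cytochrome c, complex IV (cytochrome c oxidase) passes them on to oxygen, and complex V (ATP synthase) turns with the returning protons. Their catalytic and core parts are shared between nuclear genes, named here, and mitochondrial DNA, which encodes cytochrome b, the large subunits of complex IV and some membrane subunits of complex V. In brain most of the ATP that restores ion gradients after firing comes from this chain, and the subunits of complex IV exist in common and in tissue-specific isoforms, such as those of heart and skeletal muscle, of lung and of testis.

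Values are log2 intensities, so that equal ratios are equal differences. A log2 intensity depends on the probes as well as on the transcript, so the level of 1 gene is not set against that of another. The fit used limma (linear models with moderated variances) on 19 arrays, without ASO-NSC mouse 59, which the study's methods left out as an outlier, and with the labelled sex as a term; group means are not adjusted for sex and so differ slightly from the fitted differences. All p-values are two-sided and adjusted over the 22180 genes (Benjamini-Hochberg), and a gene was called at an adjusted p under 0.05. Array medians lay between 6.67 and 6.79 log2 units and RNA integrity numbers between 9.2 and 9.7. In 5 arrays the genes that tell the sexes apart went against the label (ASO-Veh mice 45 and 47, WT-NSC mouse 54, WT-Veh mice 61 and 62). Litters 1, 3 and 5 supplied the vehicle mice and litters 3, 4 and 6 those with NSC, and only litter 3 held both treatments (ASO-Veh mice 46 and 47, WT-NSC mouse 53), so treatment and litter can hardly be told apart. Of the 7 measured markers of spiny neurons, the projection neurons of the striatum, the opioid peptide gene Pdyn had the lowest signal, with group means between 9.08 and 9.40, and no other tissue was measured to set these signals against. In a tissue sample, fewer cells of a type and less RNA per cell cannot be told apart.

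The 45 genes comprised 8 of complex III, Cycs for cytochrome c, 16 of complex IV, Cox7a2l, 17 of complex V and 2 pseudogenes. Another 4 probe sets named such a gene beside a second symbol (Uqcr10 once, Uqcrb once and Cox6c on 2 of them) and were not used, so Uqcr10 and Cox6c were not analysed here. A total of 7 genes had several probe sets. For Cox5b and Cox7b the rule kept a dim one, with mean levels of 6.08 and 6.02, where another probe set of the gene was at 10.74 and 11.16, and of the 5 probe sets of Cycs a pair held identical values. Genes of this chain have processed copies elsewhere in the genome that can share probe sequence, which was not analysed here. Of the 45, 15 were in the brightest 10% of genes by signal. The median standard deviation (SD) of the genes over the 20 arrays was 0.139 log2 units, against 0.145 for all genes and 0.097 for the brightest 10% of genes, and ran from 0.045 for Atp5b to 0.359 for Uqcrh-ps1.

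The promoters of nuclear respiratory genes are known for binding sites of NRF1, of ETS factors such as GABP, of YY1 and of Sp1, through which their transcription can be set together. A promoter was held for 33 of the 45 genes in the RefSeq table used here (mouse build GRCm38.p6, 250 bases before to 50 bases after the gene start, 27025 genes), and both strands were searched. The NRF1 site, GCGCA and GCGC parted by any 1 base, lay in 8 of the 33 promoters (24.2%) and in 5.19% of all promoters. Its palindromic form, which has T as that base and whose matches are also counted in the former, lay in 4 (12.1%; Atp5g2, Atp5k, Cox6a1 and Uqcrc1), against 1.07% of all. CCGGAAG, read by ETS factors, lay in 11 (33.3% against 9.93%), AANATGGC, read by YY1, in 5 (15.2% against 6.96%), and GGGCGG, read by Sp1, in 13 (39.4% against 38.2%). A match describes the letters and does not show that the factor was bound. Between WT-NSC and WT-Veh mice the median difference was 0.084 for the genes with the NRF1 site and 0.079 for those without it. Between ASO-NSC and ASO-Veh mice these medians were 0.015 and -0.0375. Whether the site bears on the differences was not tested. The windows below are shown because 4 of these genes (Atp5g2, Cox6a1, Atp5h and Uqcr11) were, with the probe set used, among the genes with the largest statistics in a comparison described next and Atp5k is the third gene with the palindrome before its start. Each is read 5′ to 3′ along the gene, which lies on the minus strand in all 5, and holds the motif in capitals (the NRF1 site in the first 4, the ETS site in Uqcr11) with up to 40 bases on either side.
Atp5g2: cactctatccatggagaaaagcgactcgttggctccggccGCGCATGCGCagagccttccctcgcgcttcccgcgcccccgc
Cox6a1: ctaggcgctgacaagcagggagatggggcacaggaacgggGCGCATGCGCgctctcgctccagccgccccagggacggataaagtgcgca
Atp5k: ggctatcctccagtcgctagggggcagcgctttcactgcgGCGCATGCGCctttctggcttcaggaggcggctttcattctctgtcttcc
Atp5h: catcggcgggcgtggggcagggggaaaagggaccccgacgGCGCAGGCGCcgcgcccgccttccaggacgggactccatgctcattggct
Uqcr11: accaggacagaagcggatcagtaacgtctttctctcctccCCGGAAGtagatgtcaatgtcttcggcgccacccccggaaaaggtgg
The windows stand at chr15:102671048-102671129 (Atp5g2), chr5:115349071-115349160 (Cox6a1), chr5:108434400-108434489 (Atp5k), chr11:115420011-115420100 (Atp5h) and chr10:80406841-80406927 (Uqcr11), all upstream of the gene start, with the motif beginning 42, 162, 50, 141 and 66 bases before it.

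None of the 45 genes was called in any of the 6 comparisons, so none of the differences given for them below passed the test. Between WT-NSC and WT-Veh mice the share of all genes called was 0.433% (96 genes), and at an unadjusted p under 0.05 there were 6 of the 45 genes (13.3%), against 13.5% of all genes. Between ASO-NSC and ASO-Veh mice 0.00902% of all genes were called (2 genes), and 1 of the 45 had an unadjusted p under 0.05, against 8.88% of all. Between ASO-Veh and WT-Veh mice 0.0% were called, with 0 of the 45 and 4.81% of all genes at an unadjusted p under 0.05. For ASO-NSC against WT-NSC mice 0.00451% were called, with 3 of the 45 and 3.05% of all at that p. For ASO-NSC against WT-Veh mice 0.0135% were called, with 4 of the 45 and 13.7% of all. In the difference of the NSC effect between genotypes (ASO minus WT) 0.0% were called, with 4 of the 45 and 3.64% of all. In each of the first 5 comparisons the 95% interval of all 45 genes stayed within 1 log2 unit of 0, and between 39 and 42 of them stayed within 0.5, with a median standard error (SE) of 0.088 or 0.093. In the difference of the NSC effect 44 of the 45 stayed within 1 unit and 33 within 0.5. These intervals leave litter out. With litter as a block the median SE was 0.20 between WT-NSC and WT-Veh mice, 0.18 between ASO-NSC and ASO-Veh mice and 0.22 between ASO-NSC and WT-Veh mice, and the difference turned its sign in 16, 21 and 21 of the 45 genes. In each of the other 3 comparisons it did so in 6. The first 3 set NSC against vehicle mice, and with litter fitted these treatments are linked only through litter 3. That litter held 1 NSC mouse, WT-NSC mouse 53, beside ASO-Veh mice 46 and 47, which also differ from it in genotype. These sign turns therefore cannot tell an effect of litter from the values of that mouse. The estimated correlation within litters was -0.0089, a consensus over all genes with the groups fitted. Because treatment and litter nearly coincide, the groups take up most litter differences. This value therefore cannot show whether litter mattered for the 45 genes.

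The direction of the small differences was counted as a description. Between WT-NSC and WT-Veh mice 32 of the 45 genes had a positive difference (50.4% of all genes did), and their median difference was 0.074 log2 units, beside 0.0016 for all genes and 0.029 for the brightest 10% of genes. For NSC against vehicle in ASO mice 17 were positive (51.2% of all), with a median of -0.033 beside 0.0036 for all genes. After vehicle the genotypes differed by a median of 0.030 (34 positive, 46.2% of all genes; all-gene median -0.0081) and after NSC by -0.038 (13 positive, 48.5% of all; -0.0026). For ASO-NSC against WT-Veh mice the median was 0.016 (24 positive, 48.6% of all; -0.0044), and for the difference of the NSC effect -0.082 (8 positive, 51.3% of all; 0.0039). The brightest 10% of genes had medians of 0.0046 (53.7% positive) between the genotypes after vehicle and -0.0028 (47.4%) after NSC. For ASO-NSC against WT-Veh mice they had 0.027 (60.7%), and for the difference of the NSC effect -0.010 (44.5%). The comparisons share groups and the genes of a mouse move together, so these counts are not independent of each other. They also moved with single mice. Between ASO-NSC and ASO-Veh mice 27 genes were positive without ASO-NSC mouse 73, 25 without mouse 56 and 13 without mouse 57. The median between genotypes after vehicle ran from 0.019 without WT-Veh mouse 66 to 0.058 without WT-Veh mouse 64. With sex taken from the sex genes it was 0.014 (28 positive). Without the 5 arrays whose sex genes differ from the label it was 0.011 (25 positive). After NSC it ran from -0.066 without ASO-NSC mouse 57 to -0.012 without WT-NSC mouse 58, where 20 genes were positive. For ASO-NSC against WT-Veh mice it was -0.0067 without ASO-NSC mouse 57, -0.0012 without WT-Veh mouse 66 and 0.046 without WT-Veh mouse 67. In the difference of the NSC effect 13 genes were positive without ASO-NSC mouse 73 or without WT-NSC mouse 58.

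**Figure D1:**
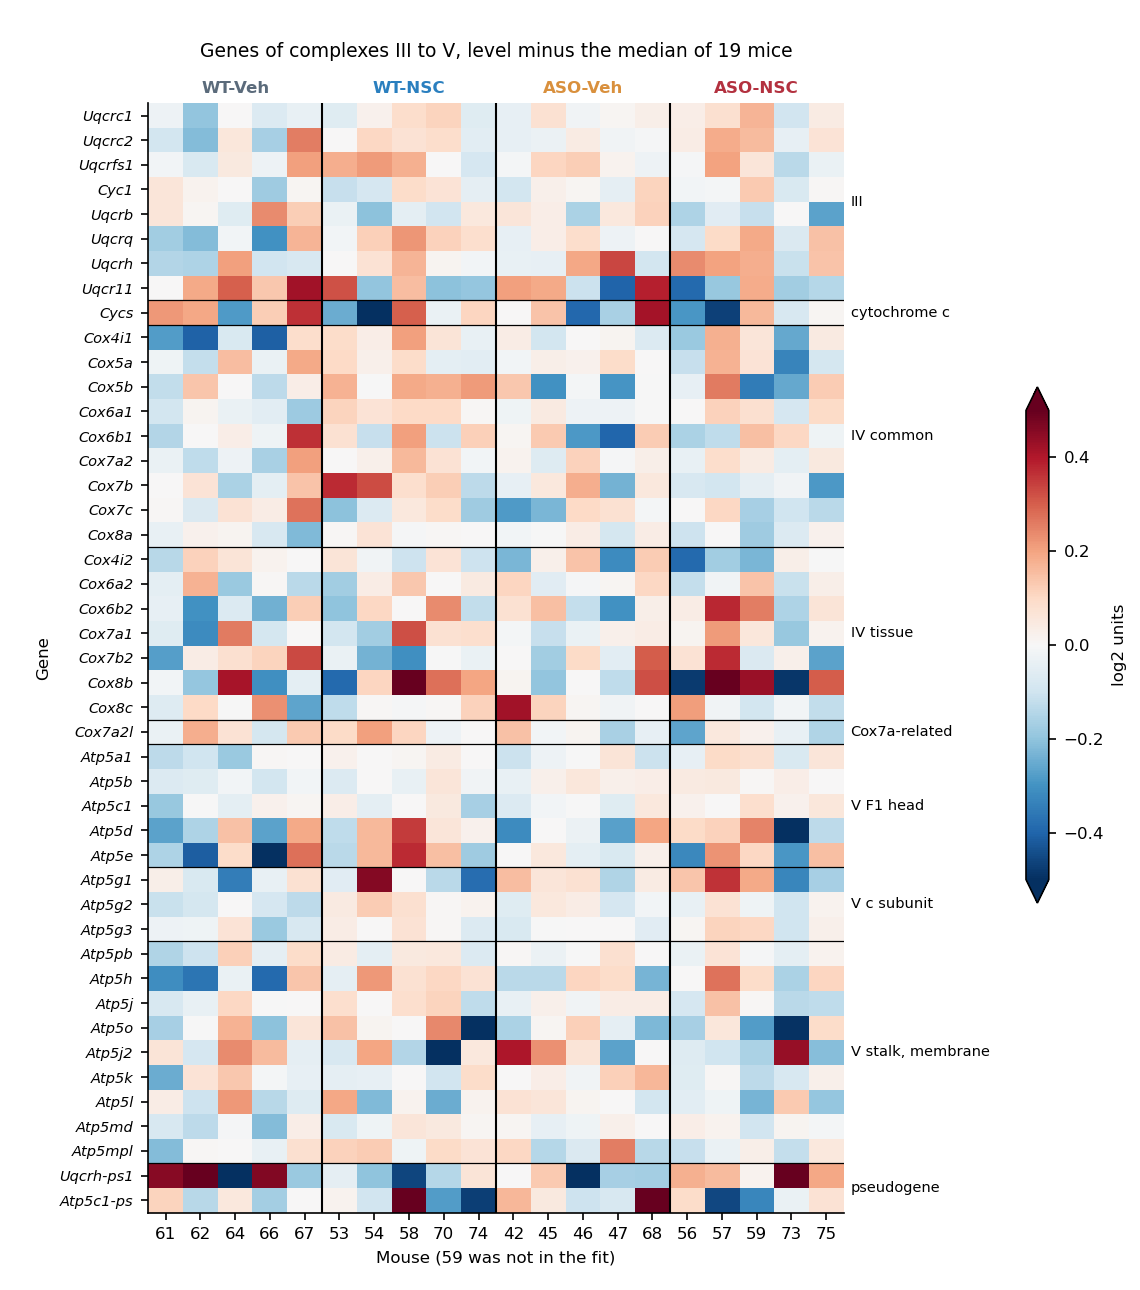
Level of each of the 45 genes (rows, ordered by complex) in each of the 20 mice (columns, by group) as log2 units above (red) or below (blue) the median of the gene over 19 mice, with the colour scale ending at 0.5 units on either side. Columns of one colour cut across groups: WT-Veh mouse 66 had the lowest value of all mice in 9 genes and ASO-NSC mouse 57 the highest in 8.

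Within each group the genes differed between mice by as much as between groups. The mean of the 45 genes, each taken relative to its median over the 19 mice, was -0.067, -0.054, 0.022, -0.079 and 0.064 log2 units in WT-Veh mice 61, 62, 64, 66 and 67. It was -0.0006, 0.016, 0.091, 0.015 and -0.038 in WT-NSC mice 53, 54, 58, 70 and 74. In ASO-Veh mice 42, 45, 46, 47 and 68 it was 0.0061, 0.0041, -0.0095, -0.057 and 0.047, and in ASO-NSC mice 56, 57, 59, 73 and 75 it was -0.058, 0.073, 0.022, -0.091 and -0.0072. All 4 groups overlapped, with group means of -0.023 ± 0.062 (SD, n = 5) for WT-Veh, 0.017 ± 0.047 (n = 5) for WT-NSC, -0.0018 ± 0.037 (n = 5) for ASO-Veh and -0.021 ± 0.071 (n = 4) for ASO-NSC. In WT-Veh mouse 61 only 9 of the 45 genes lay above their median and in ASO-NSC mouse 73 likewise 9, whereas there were 32 in WT-NSC mouse 58 and 31 in ASO-NSC mouse 57. The values of each gene below follow the same order of mice, and the third ASO-NSC value is always that of mouse 59, which was not in the fit.

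**Figure D2:**
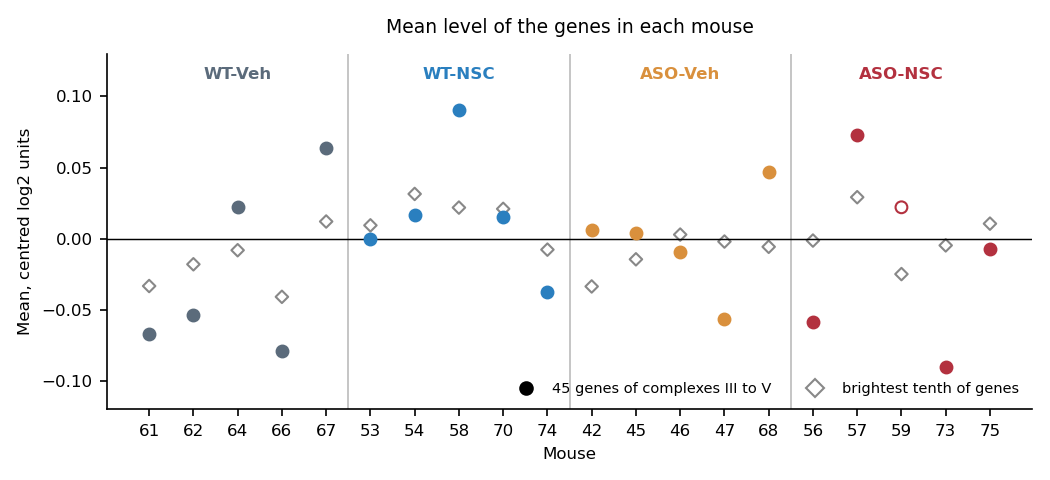
Mean over the 45 genes in each mouse (filled circles, coloured by group; the open circle is ASO-NSC mouse 59, not in the fit) and over the brightest 10% of genes (grey diamonds), in log2 units relative to the median of each gene over 19 mice. WT-Veh mouse 67 at 0.064 was the highest of its group, while WT-Veh mice 61, 62 and 66 lie between -0.079 and -0.054.

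Complex III was represented by the core proteins Uqcrc1 and Uqcrc2, the iron-sulfur protein Uqcrfs1 and cytochrome c1 (Cyc1), which pass on the electrons, the hinge protein Uqcrh between cytochrome c1 and cytochrome c, and the small subunits Uqcrb, Uqcrq and Uqcr11. Of the 8 genes, 6 had a positive difference between WT-NSC and WT-Veh mice and 3 after NSC against vehicle in ASO mice, with medians of 0.082 and -0.015. Between WT-NSC and WT-Veh mice the small subunits went both ways, with Uqcrq at 0.22, Uqcrb at -0.16 and Uqcr11 at -0.25. Between ASO-NSC and ASO-Veh mice Uqcrq was at 0.0084, Uqcrb at -0.13 and Uqcr11 at -0.27.

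Uqcr11, the smallest subunit of complex III, had the largest statistic of the 45 genes between ASO-NSC and WT-Veh mice. Uqcr11 was at 8.29, 8.48, 8.59, 8.42 and 8.71 log2 units in the WT-Veh mice and at 8.61, 8.09, 8.44, 8.09 and 8.10 in the WT-NSC mice. ASO-Veh mice had Uqcr11 at 8.49, 8.48, 8.18, 7.89 and 8.68, and ASO-NSC mice at 7.90, 8.10, 8.47, 8.11 and 8.15. Among the mice in the fit every ASO-NSC value lay below every WT-Veh value, whereas mouse 59 lay inside the WT-Veh range. The means were 8.06 ± 0.11 (SD, n = 4) and 8.50 ± 0.16 (n = 5). The fitted difference was -0.44 (SE 0.14, adjusted p = 0.235 from limma), and 1.82% of all genes lay lower without overlap in this comparison. Between ASO-NSC and ASO-Veh mice the difference was -0.27 (SE 0.14, adjusted p = 0.584), between groups that overlapped. With litter as a block both values turned positive, to 0.65 and 0.50, and the difference between WT-NSC and WT-Veh mice turned from -0.25 to 0.76 (SE 0.23, adjusted p = 0.583), none of them called. These block values rest on litter 3, where WT-NSC mouse 53 was at 8.61 and ASO-Veh mice 46 and 47 at 8.18 and 7.89.

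Uqcrb binds ubiquinone in complex III. Uqcrb was at 11.51, 11.46, 11.39, 11.68 and 11.57 log2 units in the WT-Veh mice and at 11.41, 11.24, 11.40, 11.35 and 11.50 in the WT-NSC mice. ASO-Veh mice had Uqcrb at 11.50, 11.48, 11.29, 11.50 and 11.56, and ASO-NSC mice at 11.29, 11.39, 11.33, 11.45 and 11.18. The lowest values were those of ASO-NSC mouse 75 and WT-NSC mouse 54, and all groups overlapped. The difference was -0.20 (SE 0.069, adjusted p = 0.247 from limma) between ASO-NSC and WT-Veh mice and -0.13 (SE 0.069, adjusted p = 0.584) between ASO-NSC and ASO-Veh mice. Uqcrq, the ubiquinone-binding protein QP-C, had a difference of 0.22 (SE 0.080, adjusted p = 0.247) between WT-NSC and WT-Veh mice. It is among the genes whose call depended on WT-Veh mouse 67, described below. For the other genes of complex III (Uqcrc1, Uqcrc2, Uqcrfs1, Cyc1 and Uqcrh) the differences ran from 0.012 to 0.12 between WT-NSC and WT-Veh mice and from -0.044 to 0.072 between ASO-NSC and ASO-Veh mice.

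Cycs encodes cytochrome c, the mobile carrier between complexes III and IV, which also triggers apoptosis when it leaves the mitochondrion. Its difference was -0.35 (SE 0.16, adjusted p = 0.353 from limma) between ASO-NSC and WT-Veh mice, -0.24 between WT-NSC and WT-Veh mice and -0.19 between ASO-NSC and ASO-Veh mice. The probe set used had an SD of 0.274 over the 20 arrays, the widest of the 5 for this gene. Between ASO-NSC and WT-Veh mice the other 4 were also negative, from -0.18 to -0.10. Between ASO-NSC and ASO-Veh mice they gave -0.092 to -0.040, and between WT-NSC and WT-Veh mice -0.064 to 0.0085.

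**Figure D3:**
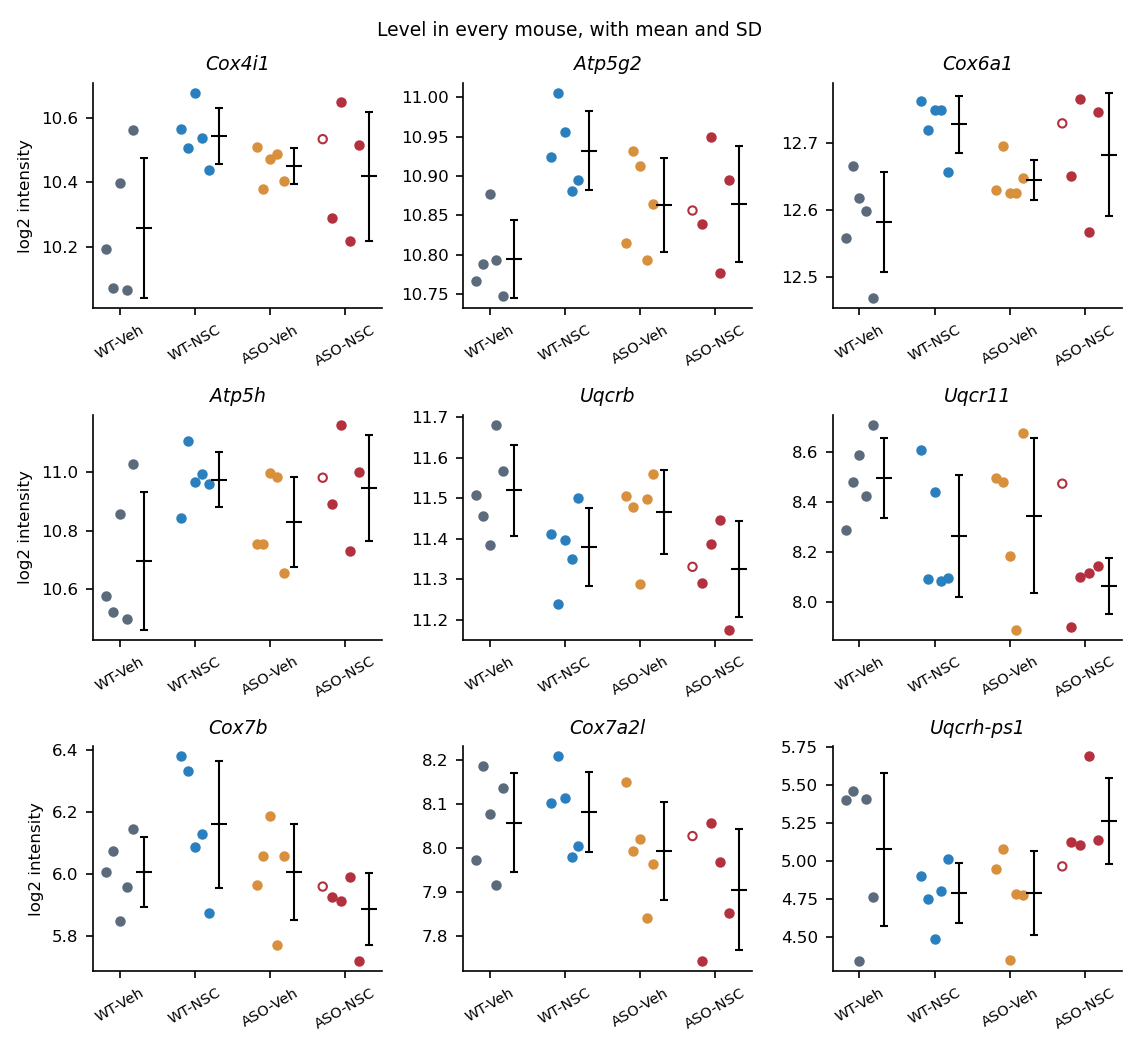
Log2 intensity of 9 of the genes in every mouse by group, each on its own axis, which does not start at 0 because the scale is logarithmic. Filled points are the mice in the fit, open points ASO-NSC mouse 59, and bars the mean and SD of the filled points. In the panel of Cox4i1, WT-Veh mouse 67 (10.56) stands within the WT-NSC range while WT-Veh mice 61, 62 and 66 lie at or below 10.19.

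The common subunits of complex IV surround a catalytic core that mitochondrial DNA encodes. They were Cox4i1, through which ATP can inhibit the enzyme, Cox5a and Cox5b, of which the latter binds zinc, Cox6a1, the Cox6b1 subunit that faces cytochrome c, and the small membrane subunits Cox7a2, Cox7b, Cox7c and Cox8a. Of these 9 genes, 6 had a positive difference between WT-NSC and WT-Veh mice, with a median of 0.086, and 4 had one between ASO-NSC and ASO-Veh mice (median -0.0066). Cox5b was among these 4, as read from its dim probe set. In the difference of the NSC effect 2 of the 9 were positive, with a median of -0.12.

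Cox4i1 was at 10.19, 10.07, 10.40, 10.06 and 10.56 log2 units in the WT-Veh mice and at 10.57, 10.51, 10.68, 10.54 and 10.44 in the WT-NSC mice. ASO-Veh mice had Cox4i1 at 10.51, 10.38, 10.47, 10.49 and 10.40, and ASO-NSC mice at 10.29, 10.65, 10.53, 10.22 and 10.52. The WT-Veh mice spread from 10.06 to 10.56, and WT-Veh mouse 67 lay among the WT-NSC mice, so the groups overlapped. The means were 10.26 ± 0.22 (SD, n = 5) in WT-Veh, 10.55 ± 0.088 (n = 5) in WT-NSC, 10.45 ± 0.057 (n = 5) in ASO-Veh and 10.42 ± 0.20 (n = 4) in ASO-NSC mice. WT-NSC and WT-Veh mice differed by 0.29 (SE 0.097, adjusted p = 0.207 from limma), which is a ratio of 1.22. The genotypes after vehicle differed by 0.20 (SE 0.097, adjusted p = 0.998), the largest statistic of the 45 genes between them, and the NSC effect in ASO minus that in WT mice was -0.32 (SE 0.14, adjusted p = 1.0). Without WT-Veh mouse 67 the WT-NSC difference was 0.39 (SE 0.089) and passed the test (adjusted p = 0.0433). Within litter 1 the ASO-Veh mice were above the WT-Veh mice by 0.31 and within litter 5 by 0.063.

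Cox6a1 encodes the common form of subunit VIa. Cox6a1 was at 12.56, 12.67, 12.62, 12.60 and 12.47 log2 units in the WT-Veh mice and at 12.76, 12.72, 12.75, 12.75 and 12.66 in the WT-NSC mice. ASO-Veh mice had Cox6a1 at 12.63, 12.70, 12.63, 12.63 and 12.65, and ASO-NSC mice at 12.65, 12.77, 12.73, 12.57 and 12.75. All WT-NSC mice but mouse 74 lay above every WT-Veh mouse, and WT-Veh mouse 67 had the lowest value of all 20. The means were 12.73 ± 0.043 (SD, n = 5) and 12.58 ± 0.074 (n = 5), and the difference was 0.15 (SE 0.051, adjusted p = 0.201 from limma), or 0.25 (SE 0.14) with litter as a block.

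Cox7b was measured by the dim probe set that the rule kept. Cox7b was at 6.01, 6.07, 5.85, 5.96 and 6.15 log2 units in the WT-Veh mice and at 6.38, 6.33, 6.09, 6.13 and 5.87 in the WT-NSC mice. ASO-Veh mice had Cox7b at 5.97, 6.06, 6.19, 5.77 and 6.06, and ASO-NSC mice at 5.93, 5.91, 5.96, 5.99 and 5.72. WT-NSC mice 53 and 54 were the highest and ASO-NSC mouse 75 the lowest. ASO-NSC and WT-NSC mice differed by -0.28 (SE 0.100, adjusted p = 1.0 from limma), with a mean of 5.89 ± 0.12 (SD, n = 4) against 6.16 ± 0.20 (n = 5). The bright probe set of this gene gave 0.040 for the same comparison, so the direction depended on the probe set. For NSC against vehicle in WT mice the dim and the bright one gave 0.17 and -0.10, and the dim one 0.49 (SE 0.24) with litter as a block.

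Cox7a2 and Cox8a complete the common forms that have a muscle counterpart. Cox7a2 was at 10.46, 10.36, 10.47, 10.33 and 10.69 log2 units in the WT-Veh mice and at 10.49, 10.52, 10.65, 10.56 and 10.48 in the WT-NSC mice. ASO-Veh mice had Cox7a2 at 10.51, 10.42, 10.60, 10.48 and 10.52, and ASO-NSC mice at 10.45, 10.58, 10.53, 10.44 and 10.54. WT-Veh mouse 67 was the highest of all mice in Cox7a2 and WT-Veh mouse 66 the lowest. Cox8a was at 12.19, 12.25, 12.24, 12.15 and 12.01 log2 units in the WT-Veh mice and at 12.23, 12.30, 12.22, 12.23 and 12.23 in the WT-NSC mice. ASO-Veh mice had Cox8a at 12.21, 12.23, 12.26, 12.14 and 12.26, and ASO-NSC mice at 12.12, 12.23, 12.05, 12.16 and 12.25. In Cox8a the same WT-Veh mouse 67 was the lowest. Their differences between WT-NSC and WT-Veh mice were 0.079 (SE 0.066, adjusted p = 0.623 from limma) and 0.086 (SE 0.051, adjusted p = 0.478). Of the remaining common subunits, Cox5a, Cox6b1 and Cox7c had differences of -0.0015, -0.028 and -0.12 between WT-NSC and WT-Veh mice, and Cox5b 0.17 with its dim and 0.11 with its bright probe set. Between ASO-NSC and ASO-Veh mice the dim and the bright probe set of Cox5b gave 0.12 and -0.13. Between the genotypes after vehicle they gave -0.080 and 0.077, so in both comparisons the sign depended on the probe set.

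The tissue isoforms of complex IV were Cox4i2 (lung, and induced by low oxygen), Cox6a2, Cox7a1 and Cox8b (heart and skeletal muscle), Cox6b2 and Cox8c (testis), and Cox7b2, a relative of Cox7b. None was called, and 5 of the 7 had a positive difference between WT-NSC and WT-Veh mice (median 0.049) and 3 between ASO-NSC and ASO-Veh mice (median -0.033). Cox4i2 was at 7.15, 7.41, 7.36, 7.31 and 7.29 log2 units in the WT-Veh mice and at 7.36, 7.28, 7.19, 7.36 and 7.19 in the WT-NSC mice. ASO-Veh mice had Cox4i2 at 7.07, 7.32, 7.44, 6.98 and 7.42, and ASO-NSC mice at 6.90, 7.12, 7.06, 7.32 and 7.29. The lowest Cox4i2 value was that of ASO-NSC mouse 56. Cox6a2 was at 7.08, 7.30, 6.94, 7.13 and 6.99 log2 units in the WT-Veh mice and at 6.95, 7.17, 7.26, 7.13 and 7.17 in the WT-NSC mice. ASO-Veh mice had Cox6a2 at 7.24, 7.07, 7.12, 7.14 and 7.23, and ASO-NSC mice at 7.01, 7.11, 7.27, 7.02 and 7.16. In Cox6a2 the values of the other groups all lay within the WT-Veh range. The SD was 0.139 in WT-Veh, 0.113 in WT-NSC, 0.071 in ASO-Veh and 0.073 in ASO-NSC mice. Cox7a1 was at 6.53, 6.27, 6.85, 6.50 and 6.59 log2 units in the WT-Veh mice and at 6.49, 6.41, 6.91, 6.66 and 6.67 in the WT-NSC mice. ASO-Veh mice had Cox7a1 at 6.58, 6.47, 6.55, 6.61 and 6.62, and ASO-NSC mice at 6.60, 6.80, 6.64, 6.40 and 6.60. WT-NSC mouse 58 was the highest in Cox7a1. Cox8b was at 5.54, 5.36, 5.96, 5.24 and 5.50 log2 units in the WT-Veh mice and at 5.16, 5.66, 6.16, 5.83 and 5.75 in the WT-NSC mice. ASO-Veh mice had Cox8b at 5.56, 5.35, 5.55, 5.42 and 5.88, and ASO-NSC mice at 5.07, 6.15, 5.98, 5.07 and 5.85. Cox8b spread over about a whole log2 unit within WT-NSC and within ASO-NSC mice, with an SD of 0.36 and 0.55, and its differences had the largest SE of the 45 genes, up to 0.22 between groups. Cox7b2 and Cox8c had low array signals (mean levels 4.28 and 4.02), as did the 2 pseudogenes. Markers of skeletal muscle (6 of 6 measured) had group means of 6.25 to 6.34, and none of them was called in any comparison.

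The tissue forms of 4 subunits stand beside their common forms here, and whether the forms of a subunit differed in response was not tested. Between WT-NSC and WT-Veh mice the difference was 0.29 for Cox4i1 and -0.034 for Cox4i2, 0.15 for Cox6a1 and 0.049 for Cox6a2, 0.079 for Cox7a2 and 0.090 for Cox7a1, and 0.086 for Cox8a and 0.22 for Cox8b. Between ASO-NSC and ASO-Veh mice these 8 differences ran from -0.088 for Cox6a2 to 0.034 for Cox6a1.

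Cox7a2l, a relative of Cox7a2, joins complex III to complex IV in respiratory supercomplexes, and some laboratory strains, C57BL/6 among them, carry a short form of it. Cox7a2l was at 7.97, 8.19, 8.08, 7.92 and 8.14 log2 units in the WT-Veh mice and at 8.10, 8.21, 8.11, 7.98 and 8.01 in the WT-NSC mice. ASO-Veh mice had Cox7a2l at 8.15, 7.99, 8.02, 7.84 and 7.96, and ASO-NSC mice at 7.74, 8.06, 8.03, 7.97 and 7.85. ASO-NSC mouse 56 was the lowest of all mice and WT-NSC mouse 54 the highest. The difference between ASO-NSC and WT-NSC mice was -0.18 (SE 0.078, adjusted p = 1.0 from limma). In litters 4 and 6, each with 2 mice of either genotype in the fit, it was -0.082 and -0.26.

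**Figure D4:**
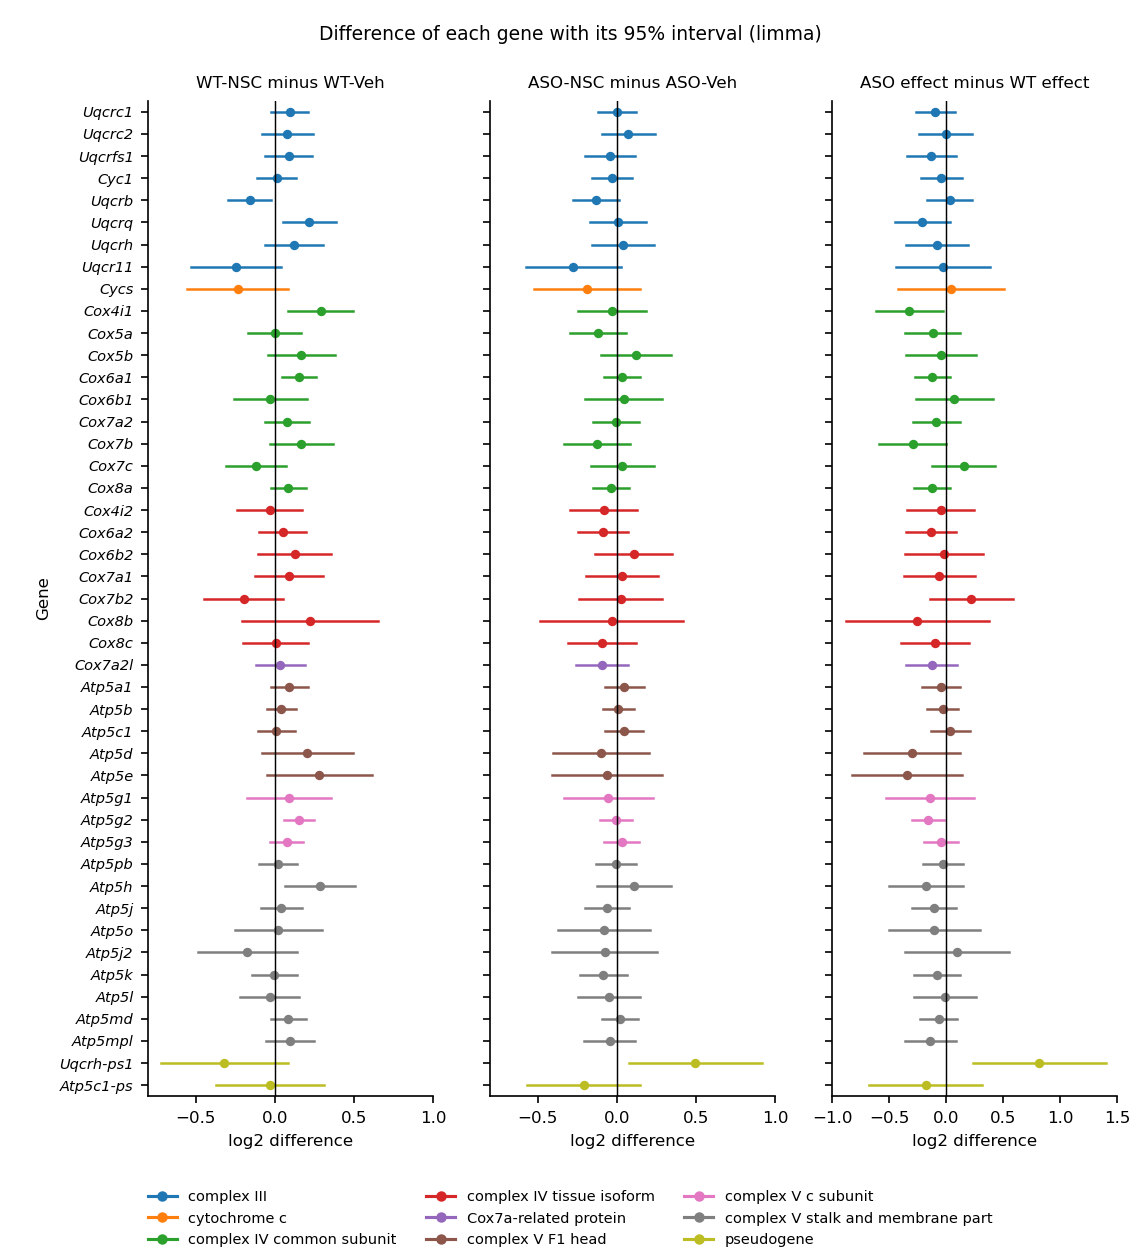
Log2 difference of each of the 45 genes (points) with its 95% interval (lines) from limma for the NSC effect in WT mice, the NSC effect in ASO mice and the difference between these effects, coloured by the part of the chain. Between WT-NSC and WT-Veh mice 32 points lie to the right of 0 and between ASO-NSC and ASO-Veh mice 17, and no gene passed the test in any panel.

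Complex V consists of a catalytic head, F1, and a membrane rotor with its stator. The head was represented by Atp5a1 and Atp5b, the α and catalytic β subunits, and by Atp5c1, Atp5d and Atp5e, the γ, δ and ε subunits of the central stalk. All 5 had a positive difference between WT-NSC and WT-Veh mice, from 0.0097 for Atp5c1 to 0.28 for Atp5e, with a median of 0.092, and all 5 between ASO-Veh and WT-Veh mice, with a median of 0.042. In ASO mice 3 of the 5 had a positive NSC effect, with a median of 0.0093. Atp5b lay higher in each ASO-NSC mouse in the fit than in any WT-Veh mouse (12.85 ± 0.021 (SD, n = 4) against 12.77 ± 0.036 (n = 5)), by 0.082 (SE 0.046, adjusted p = 0.432 from limma). Of all genes, 2.25% lay higher without overlap in that comparison. The other probe set of Atp5e gave -0.064 where the one used gave 0.28 between WT-NSC and WT-Veh mice.

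Atp5g1, Atp5g2 and Atp5g3 encode the c subunit, the proton-carrying ring of the rotor, as precursors that differ in the import signal and yield the same mature protein. All 3 had positive differences between WT-NSC and WT-Veh mice (median 0.087), and their differences between ASO-NSC and ASO-Veh mice lay between -0.054 and 0.030. Atp5g2 was at 10.77, 10.79, 10.88, 10.79 and 10.75 log2 units in the WT-Veh mice and at 10.92, 11.01, 10.96, 10.88 and 10.89 in the WT-NSC mice. ASO-Veh mice had Atp5g2 at 10.81, 10.93, 10.91, 10.79 and 10.86, and ASO-NSC mice at 10.84, 10.95, 10.86, 10.78 and 10.89. Every WT-NSC mouse lay above every WT-Veh mouse, the nearest being WT-NSC mouse 70 and WT-Veh mouse 64, and 1.24% of all genes lay higher without overlap in this comparison. The means were 10.93 ± 0.050 (SD, n = 5) and 10.79 ± 0.050 (n = 5). The difference of 0.15 (SE 0.046, adjusted p = 0.165 from limma), a ratio of 1.11, had the largest statistic of the 45 genes there. The other probe set of Atp5g2 gave 0.063, and the one used gave 0.25 (SE 0.12) with litter as a block. The genotypes after vehicle differed by 0.083 (SE 0.046, adjusted p = 0.998), and the NSC effect in ASO minus that in WT mice was -0.16 (SE 0.067, adjusted p = 1.0).

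Atp5g1 was at 6.56, 6.46, 6.19, 6.50 and 6.61 log2 units in the WT-Veh mice and at 6.48, 6.99, 6.53, 6.40 and 6.15 in the WT-NSC mice. ASO-Veh mice had Atp5g1 at 6.69, 6.59, 6.61, 6.38 and 6.58, and ASO-NSC mice at 6.67, 6.90, 6.73, 6.21 and 6.37. WT-NSC mouse 54 was the highest in Atp5g1 and WT-NSC mouse 74 the lowest, so that this group spanned the range of all mice. Atp5g3 was at 8.96, 8.96, 9.05, 8.79 and 8.90 log2 units in the WT-Veh mice and at 9.01, 8.98, 9.05, 8.98 and 8.91 in the WT-NSC mice. ASO-Veh mice had Atp5g3 at 8.90, 8.98, 8.98, 8.98 and 8.92, and ASO-NSC mice at 8.99, 9.09, 9.08, 8.88 and 9.01. Atp5g3 was held closely in all groups, with an SD between 0.037 and 0.094. The differences between WT-NSC and WT-Veh mice were 0.087 (SE 0.13, adjusted p = 0.794 from limma) for Atp5g1 and 0.074 (SE 0.050, adjusted p = 0.529) for Atp5g3.

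The stalk and membrane part comprised the b subunit (Atp5pb), the d subunit (Atp5h), coupling factor 6 (Atp5j) and the oligomycin sensitivity protein (Atp5o), which form the outer stalk, and the small membrane subunits f (Atp5j2), e (Atp5k), g (Atp5l), DAPIT (Atp5md) and a small proteolipid (Atp5mpl). Of these 9 genes, 6 had a positive difference between WT-NSC and WT-Veh mice (median 0.023) and 2 between ASO-NSC and ASO-Veh mice (median -0.047). Atp5h was at 10.58, 10.52, 10.86, 10.50 and 11.03 log2 units in the WT-Veh mice and at 10.84, 11.11, 10.97, 10.99 and 10.96 in the WT-NSC mice. ASO-Veh mice had Atp5h at 10.76, 10.76, 10.997, 10.98 and 10.66, and ASO-NSC mice at 10.89, 11.16, 10.98, 10.73 and 10.998. WT-Veh mice 61, 62 and 66 were the lowest of all, and WT-Veh mouse 67 lay above most WT-NSC mice. Between ASO-NSC and WT-Veh mice Atp5h differed by 0.25 (SE 0.11, adjusted p = 0.338 from limma), and with litter as a block by -0.13. The other probe set of Atp5h gave -0.045 there. For WT-NSC against WT-Veh mice Atp5h had a difference of 0.29 (SE 0.11, adjusted p = 0.247) with the probe set used and 0.074 with the other. With litter as a block the former turned to -0.064 (SE 0.25). For the remaining 8 genes the differences between WT-NSC and WT-Veh mice ran from -0.17 for Atp5j2 to 0.093 for Atp5mpl.

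Uqcrh-ps1 and Atp5c1-ps are annotated as pseudogenes, copies of Uqcrh and Atp5c1, and both were dim. Uqcrh-ps1 was at 5.40, 5.46, 4.34, 5.41 and 4.76 log2 units in the WT-Veh mice and at 4.90, 4.75, 4.49, 4.80 and 5.01 in the WT-NSC mice. ASO-Veh mice had Uqcrh-ps1 at 4.95, 5.08, 4.35, 4.78 and 4.78, and ASO-NSC mice at 5.13, 5.11, 4.96, 5.69 and 5.14. WT-Veh mice 61, 62 and 66 were high and mice 64 and 67 low, and ASO-NSC mouse 73 stood above all others. Among the mice in the fit every ASO-NSC value lay above every ASO-Veh and every WT-NSC value. Mouse 59, however, fell within both of those ranges. Of all genes, 3.01% and 0.555% lay higher without overlap in these comparisons. The differences were 0.50 (SE 0.20, adjusted p = 0.509 from limma) between ASO-NSC and ASO-Veh mice and 0.49 (SE 0.20, adjusted p = 1.0) between ASO-NSC and WT-NSC mice, at means of 5.27 ± 0.28 (SD, n = 4), 4.79 ± 0.28 (n = 5) and 4.79 ± 0.20 (n = 5). Between ASO-Veh and WT-Veh mice the difference was -0.32 (SE 0.19, adjusted p = 0.998). At 0.82 (SE 0.28, adjusted p = 1.0), its NSC effect in ASO minus that in WT mice was the largest such difference of the 45 genes. Within litters 4 and 6 the ASO-NSC mice were above the WT-NSC mice by 0.51 and 0.50. Uqcrh itself had differences of 0.038 and 0.061 in these first 2 comparisons. Without the 2 pseudogenes the medians of the remaining 43 genes were 0.078 between WT-NSC and WT-Veh mice and -0.033 between ASO-NSC and ASO-Veh mice.

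Among the 45 genes, what was called between WT-NSC and WT-Veh mice depended on WT-Veh mouse 67. Without it 3 of the 45 genes passed the test: Uqcrq (0.31, SE 0.066, adjusted p = 0.037 from limma), Cox4i1 (0.39, SE 0.089, adjusted p = 0.0433) and Atp5h (0.40, SE 0.093, adjusted p = 0.045). The calls among all 22180 genes then numbered 277, against 96 with all 5 WT-Veh mice. They also moved with other mice, to 4 without WT-Veh mouse 61 and to 6 without WT-NSC mouse 58. Uqcrq, Cox4i1 and Atp5h belong to complexes III, IV and V, in that order. The median difference over the 45 genes was 0.073 without this mouse, close to the value with it. The labels give no ground for leaving this mouse out, and its RNA integrity number was 9.7, against 9.2 to 9.4 in the other WT-Veh mice.

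Of the neighbouring parts of the chain, complexes I and II, the assembly factors and the citric acid cycle had positive medians after NSC in both genotypes, whereas the genes of mitochondrial DNA had negative ones. Of complex I, which feeds the chain from NADH, 42 genes were measured, 32 with a positive difference between WT-NSC and WT-Veh mice (median 0.059) and 23 between ASO-NSC and ASO-Veh mice (median 0.0098), and none was called in any comparison. The 4 genes of complex II, succinate dehydrogenase, had medians of 0.10 and 0.039 in those comparisons. Of 30 measured assembly factors of complexes III to V, which insert copper and haem and help the subunits join, 28 had a positive difference between WT-NSC and WT-Veh mice (median 0.092) and 18 between ASO-NSC and ASO-Veh mice (median 0.012). The 12 genes of the citric acid cycle gave 0.083 and 0.033, and the 14 regulators of mitochondrial biogenesis 0.012 and 0.039. Of 10 measured genes of mitochondrial DNA, which encodes the partners of these subunits, 3 and 1 had a positive difference, with medians of -0.019 and -0.026. None of the genes of these lists was called in any comparison. Next to the chain, Atpif1, which inhibits complex V when it runs backwards, differed by 0.037 and -0.076, and Cyct, the cytochrome c of testis, by -0.17 and -0.031, in the same order.

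Among markers of other cell types 2 were called, both between WT-NSC and WT-Veh mice. Of 5 astrocyte markers, Gfap, the filament protein of reactive astrocytes, was one of them (0.74, SE 0.15, adjusted p = 0.038 from limma), and the mean of the list lay between 9.31 and 9.62 in WT-Veh, 9.65 and 9.86 in WT-NSC, 9.46 and 9.59 in ASO-Veh and 9.70 and 9.996 in ASO-NSC mice. Of 5 markers of dividing progenitors, Top2a, the topoisomerase of dividing cells, was the other (0.50, SE 0.095, adjusted p = 0.0266), with list means of 6.48 to 6.58 in WT-Veh, 6.58 to 6.79 in WT-NSC, 6.36 to 6.53 in ASO-Veh and 6.51 to 6.60 in ASO-NSC mice. None of the 5 microglial, 4 oligodendrocyte, 4 endothelial, 4 choroid plexus, 3 cortical neuron and 7 spiny neuron markers was called in any comparison. The medians of the microglial and oligodendrocyte markers were 0.15 and 0.20 between WT-NSC and WT-Veh mice and 0.13 and 0.13 between ASO-NSC and ASO-Veh mice, and the median of the spiny neuron markers was -0.026 and -0.16. The 3 cortical neuron markers measured, of 4 listed, had medians of the same sign as those of the 45 genes in all 6 comparisons, 0.27 between WT-NSC and WT-Veh mice, -0.13 between ASO-NSC and ASO-Veh mice, 0.15 between the genotypes after vehicle, -0.24 between them after NSC, 0.030 for ASO-NSC against WT-Veh mice and -0.39 for the difference of the NSC effect. The mean of these 3 markers lay between 5.95 and 8.20 in WT-Veh, 6.45 and 8.07 in WT-NSC, 6.75 and 8.01 in ASO-Veh and 6.91 and 7.43 in ASO-NSC mice. The 6 comparisons are built from the same 4 groups, so the match of signs is not 6 separate observations. It concerns 3 genes, in groups whose ranges overlapped. The part of these cells in the values of the 45 genes was not tested.

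Within litters the genotype comparison could be made without the treatment. After vehicle, the median difference of the 45 genes, ASO minus WT, was 0.080 in litter 1 (2 mice of either genotype, 34 positive) and 0.048 in litter 5 (1 ASO and 3 WT mice, 30 positive). After NSC it was -0.050 in litter 4 (10 positive) and -0.016 in litter 6 (19 positive), each with 2 mice of either genotype in the fit. The sign of the median was thus the same in both litters of each treatment, from at most 3 mice on a side. All-gene medians in these litters lay between -0.0066 and -0.0015. By the mean of the 45 genes in each mouse, the genotypes overlapped in litters 4, 5 and 6 and did not in litter 1. In litter 6, for example, ASO-NSC mouse 57 (0.073) lay above WT-NSC mouse 54 (0.016). In litter 1, the sex genes of ASO-Veh mouse 45 and of WT-Veh mice 61 and 62 went against their labels. The effect of NSC has no value within a litter for either genotype. The median difference between ASO-NSC and ASO-Veh mice changed its sign when ASO-NSC mouse 73 (0.015) or mouse 56 (0.0005) was left out.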

How the data were processed

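The deposited table holds log2 intensities of 41345 probe sets for 20 arrays (Affymetrix Mouse Gene 2.0 ST), made by the authors with RMA in the oligo package (background correction, normalization between arrays, summary per transcript cluster); the array annotation gave 23521 probe sets a single symbol. Samples were grouped by their titles. Arrays have no read depth, and precision is limited by how many mice were measured. Genes were fitted with limma 3.58.1 in R 4.3.3 on 19 arrays, in a model of the 4 groups plus the labelled sex (lmFit, contrasts, eBayes), after the code had been tested on simulated data. The prior and residual degrees of freedom together had a median of 18.2. Values of every mouse are given for the 3 genes with the largest absolute moderated statistic in each comparison, for the c subunit and for pairs of isoforms, 17 genes in all. The genes and lists were chosen with earlier results of these data known, so no list was tested. Other genes with values in the text were chosen after these were seen. Promoters came from RefSeq (GRCm38.p6) and were matched by gene ID. Summaries used Python 3.11.15 with pandas 2.3.3 and numpy 2.4.6, and plots matplotlib 3.10.9. The fit was repeated with all 20 arrays, without the sex term, with sex taken from the sex genes, without the 5 arrays whose sex genes differ from the label, with litter as a fixed block, arrays centred on their median, the brighter 11090 genes, the mean of probe sets, a trended robust prior, and without each mouse in turn. The brightest probe set, each probe set alone and values within litters were added after the data were seen.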

Additional observations from a re-analysis of the deposited data

Results flagged for a closer look

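Among 72 sets of values tested for a mouse that stands apart (the 17 genes given mouse by mouse and the mean of the 45 genes, in each of the 4 groups), 2 were picked out, and about 1 in 20 would be by chance. For Uqcrh-ps1, ASO-NSC mouse 73 was at 5.69 log2 units while the other ASO-NSC mice in the fit lay between 5.11 and 5.14. For Cox8a, WT-NSC mouse 54 was at 12.30 while the others of its group lay between 12.22 and 12.23.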

How the results depend on the processing

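The count of respiratory complex III to V genes called was 0 in all 6 comparisons under every alternative, except between WT-NSC and WT-Veh mice, where it ran from 0 to 3 as single mice were left out and was 3 without WT-Veh mouse 67. Cox4i1 then passed the test, with a difference of 0.39. Among the 3 genes with the largest statistics in each comparison, the differences that turned their sign were those of Uqcr11, Atp5h and Cox7b. Uqcr11 did so with litter as a block (0.50 between ASO-NSC and ASO-Veh mice, 0.65 between ASO-NSC and WT-Veh mice). Atp5h did so between ASO-NSC and WT-Veh mice with litter as a block (-0.13) and with its other probe set (-0.045). Cox7b did so with the brightest probe set (0.040 between ASO-NSC and WT-NSC mice). Over all 45 genes litter as a block turned 16 differences between WT-NSC and WT-Veh mice, Atp5h (-0.064) and Uqcr11 (0.76) among them, and 21 between ASO-NSC and ASO-Veh mice. Centring arrays on their median changed the number of genes with a positive difference from 32 to 27 between WT-NSC and WT-Veh mice and from 17 to 12 between ASO-NSC and ASO-Veh mice. For ASO-NSC against WT-Veh mice the median difference turned from 0.016 to -0.0078 with that centring, to -0.0084 with sex from the sex genes to -0.0067 without ASO-NSC mouse 57, to -0.0012 without WT-Veh mouse 66 and to -0.0030 without the 5 arrays whose sex genes differ from the label. Between WT-NSC and WT-Veh mice the median ran from 0.045 to 0.083 as single mice were left out, and was 0.027 without those 5 arrays and 0.049 with the brightest probe set. The calls among all genes in that comparison fell from 96 to 2 with litter as a block and to 2 without those 5 arrays, were 59 over the brighter genes alone, and ran from 4 without WT-Veh mouse 61 to 277 without WT-Veh mouse 67. Between ASO-NSC and WT-Veh mice they ran from 0 to 18 over the alternatives, against 3. No paired analysis was possible because the animal numbers are not shared between groups, and litter, which some mice of both genotypes share, was fitted as a block in its place.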
